A study of Homo sapiens with 8 samples.

Results

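This report describes 9 genes of late keratinocyte differentiation: FLG, FLG2, LOR, IVL, RPTN, CRNN, HRNR, TCHH and CASP14. They were chosen by symbol from the 25369 genes of the deposited table, as large proteins of the cornified envelope, fused S100-type proteins and the caspase that acts on filaggrin, and all 9 were found. LOR is the table's symbol for loricrin. The RNA came from EPC2-hTERT cells, human esophageal keratinocytes made immortal by telomerase. Lentivirus had been used to derive 2 stable lines, one with a non-targeting control hairpin (shCtrl) and one in which HIF1A was knocked down by a hairpin (HIF1A-KD). Each line gave 4 libraries, which the sample titles number 1 to 4. All cells were grown for 2 days to confluence on membranes with 0.4 µm pores, kept for 5 days at 1.8 mM calcium chloride and exposed to air for 4 days. The labels also name DMSO vehicle and the hydroxylase inhibitor dimethyloxalylglycine without assigning either to a library. Whether a line is 1 clone, how many hairpins were used and whether the libraries came from separate cultures are not given in the sources used here, so p-values measure only the spread between these libraries. The title of the series names HIF-1α, metabolism and epithelial differentiation in eosinophilic esophagitis, and the values below bear on the differentiation part of that question.

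A keratinocyte that reaches the surface of a stratified epithelium replaces its membrane with a cornified envelope, a shell of proteins that transglutaminases link together. Involucrin (IVL) is an early scaffold of that shell, and loricrin is its main reinforcement in the epidermis. The fused S100-type proteins join a calcium-binding S100 domain to long repeats. Profilaggrin (FLG) is stored in granules and then cut into filaggrin, which packs keratin filaments, and caspase-14 (CASP14) takes part in the later breakdown of filaggrin. Cornulin (CRNN) is the abundant fused S100-type protein of esophageal epithelium, repetin (RPTN) and filaggrin-2 (FLG2) belong to the epidermal granular layer and its appendages, hornerin (HRNR) is found in cornifying skin, and trichohyalin (TCHH) in the inner root sheath of hair.

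Of the 9 genes, 8 lie within 1156 kb of chromosome 1, in the epidermal differentiation complex, and CASP14 lies on chromosome 19. The deposited coordinates are of hg19. The 6 fused S100-type genes are all on the minus strand, at 152078793 to 152087930 (TCHH), 152126071 to 152131704 (RPTN), 152184552 to 152196672 (HRNR), 152274651 to 152297679 (FLG), 152321213 to 152332482 (FLG2) and 152381719 to 152386750 (CRNN). IVL, at 152881039 to 152884362, and LOR, at 153232179 to 153234600, are on the plus strand. CASP14 lies at 15160291 to 15169103 on the plus strand of chromosome 19. FLG-AS1 (152285935 to 152339168, plus strand) overlaps FLG and FLG2. The sources used here do not say whether counting used strand, so reads of FLG-AS1 and of its 2 partners cannot be told apart. The listed level of FLG-AS1 ranged from 0.559 to 1.41 RPKM (reads per kilobase of gene length, scaled to the library's reads) among shCtrl libraries and from 1.33 to 6.58 RPKM among HIF1A-KD libraries. The repeats of FLG are near copies of each other, and those of FLG2 and HRNR are alike, so the split of reads among them is uncertain.

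The promoters of these genes are shown because 8 genes that lie together in 1 gene complex were measured at levels that differ by orders of magnitude. All 9 genes matched RefSeq (GRCh38.p14, a different build from the deposited coordinates), and the 250 bases before the start were searched on both strands. The motif TGANTCA, which AP-1 factors bind, was present in 8 of the 9 promoters, all but HRNR, and in 6.57% of 35116 RefSeq promoters. The box TATAAA, near which transcription starts, was present in 6 of 9, against 10.7% of all. The HIF core ACGTG, which is also part of some E-boxes, was present in 3 of 9 (FLG, LOR and TCHH), against 18.5%. Other motifs searched were AACCNGTT (1 of 9, in RPTN, against 1.49%), CCAAT (3 of 9, against 32%), GGGTGNGG (0 of 9, against 16.7%) and CCGGAAGT (0 of 9, against 3.42%), and the p53 family motif was in 0 of 9, against 0.325%. These are matches of letters and not sites of binding. The last 130 bases before the start are given for the 8 genes of chromosome 1, with matches to these first 3 motifs, on either strand, in capitals. The ACGTG matches of FLG and TCHH, at −160 and −167, lie outside these windows.
TCHH, chr1:152115445-152115574, minus strand: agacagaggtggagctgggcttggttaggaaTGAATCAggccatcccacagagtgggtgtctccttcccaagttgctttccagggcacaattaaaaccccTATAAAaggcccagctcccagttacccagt
RPTN, chr1:152159229-152159358, minus strand: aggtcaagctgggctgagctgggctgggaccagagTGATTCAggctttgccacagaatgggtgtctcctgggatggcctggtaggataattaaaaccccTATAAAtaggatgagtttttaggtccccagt
HRNR, chr1:152224194-152224323, minus strand: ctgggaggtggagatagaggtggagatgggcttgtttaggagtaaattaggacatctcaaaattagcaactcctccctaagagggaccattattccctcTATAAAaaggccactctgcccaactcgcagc
FLG, chr1:152325240-152325369, minus strand: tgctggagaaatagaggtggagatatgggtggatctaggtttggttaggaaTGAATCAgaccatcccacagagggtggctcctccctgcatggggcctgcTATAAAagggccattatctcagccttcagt
FLG2, chr1:152360007-152360136, minus strand: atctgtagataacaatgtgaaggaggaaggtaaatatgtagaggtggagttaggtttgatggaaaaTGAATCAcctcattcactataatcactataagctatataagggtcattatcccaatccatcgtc
CRNN, chr1:152414264-152414393, minus strand: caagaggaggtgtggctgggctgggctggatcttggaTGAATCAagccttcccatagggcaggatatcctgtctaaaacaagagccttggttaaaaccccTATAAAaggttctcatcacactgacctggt
IVL, chr1:152908416-152908545, plus strand: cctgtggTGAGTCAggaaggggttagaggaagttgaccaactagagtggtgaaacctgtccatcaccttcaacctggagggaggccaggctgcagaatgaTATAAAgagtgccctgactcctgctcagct
LOR, chr1:153259557-153259686, plus strand: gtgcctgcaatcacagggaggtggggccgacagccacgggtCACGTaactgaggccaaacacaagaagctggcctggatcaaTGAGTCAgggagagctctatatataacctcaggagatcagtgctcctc
In the fused S100-type genes the TGANTCA match begins at −99 (TCHH), −95 (RPTN), −79 (FLG), −64 (FLG2) and −93 (CRNN) from the start, with none in HRNR, and the TATAAA match at −30 or −31, with none in FLG2. CRNN, the gene with the highest level, and TCHH, the gene with the lowest, both hold a TGANTCA and a TATAAA match at like distances. In CASP14 the TGANTCA match begins at −190.

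The libraries held 38068729 to 65326907 reads, as implied by the deposited RPKM values, and the p-values below are from limma on log2(RPKM + 0.1) unless another test is named. The level of HIF1A was 89.7 ± 29.2 RPKM over shCtrl libraries and 36.6 ± 16.3 RPKM over HIF1A-KD libraries (SD, n = 4 each), with a log2 difference of −1.34 (SE 0.37). It missed the threshold of an adjusted p of 0.05 (0.319, limma) and passed with the library number as a block (0.0253, limma), a call lost without number 1 (0.107), 2 (0.187) or 4 (0.0524). HIF1A-KD 3, at 54.8 RPKM, lay above shCtrl 2, at 51.4 RPKM. The log2 difference of HIF1A kept its direction, from −1.61 to −1.07, over the 23 alternative settings run. The authors' deposited table lists HIF1A at a log2 fold change of −1.37 and an adjusted p of 7e-12, by a test that is not named. Of all its genes 9.02% are under 0.05. The cells expressed the markers of a stratified keratinocyte, with all 8 basal and all 12 suprabasal markers detected and a summed level of the suprabasal list of 25410 to 30810 RPKM in shCtrl and 31500 to 37810 RPKM in HIF1A-KD. Among the markers of other cells, PTPRC, CD3E, TPSAB1, HPGDS, MLANA and TYR were at 0 in all 8 libraries, and 1 of 7 fibroblast, 1 of 4 endothelial, 1 of 6 leukocyte and 1 of 5 melanocyte markers passed the filter on low values. Of the simple and glandular epithelium markers 3 of 6 passed, led by KRT18, with a summed level of 66.7 to 105 RPKM among shCtrl libraries and 66.5 to 109 RPKM among HIF1A-KD libraries. In these bulk libraries, fewer cells of a layer and less RNA per cell cannot be told apart.

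The members spanned very different levels per gene length. In shCtrl the order of mean RPKM was CRNN (534 ± 339), IVL (499.8 ± 114), RPTN (87.1 ± 93.8), FLG (30.6 ± 41.8), LOR (19.2 ± 17.8), FLG2 (17.9 ± 26.2), CASP14 (5.75 ± 6.47), HRNR (0.0258 ± 0.05) and TCHH (0.0077 ± 0.0053) (SD, n = 4). In HIF1A-KD the order was CRNN (1157 ± 266), IVL (671 ± 301), RPTN (74.1 ± 57.4), FLG (14.4 ± 8.78), FLG2 (7.33 ± 7.47), LOR (3.93 ± 4.47), CASP14 (0.847 ± 0.306), HRNR (0.0064 ± 0.0078) and TCHH (0.0060 ± 0.0055) (SD, n = 4). CRNN and IVL were therefore among the most abundant transcripts, above 99.5% and 99.4% of all listed genes in shCtrl. Within shCtrl the ranges of neighbours in the order overlapped, apart from IVL over RPTN and CASP14 over HRNR, and within HIF1A-KD apart from those pairs and RPTN over FLG. An exact sign-change permutation test over 4 libraries cannot go below p = 0.125, so neighbours are compared here by their ranges alone. The order of FLG and LOR in the shCtrl means turned on shCtrl 1. Without it the means were 668 RPKM for CRNN, 542 RPKM for IVL, 40.3 RPKM for RPTN, 10.97 RPKM for LOR, 9.76 RPKM for FLG, 4.86 RPKM for FLG2 and 2.57 RPKM for CASP14, with LOR above FLG, as in the medians of all 4 libraries (15.1 and 10.9 RPKM). Library by library, FLG was above LOR in 3 of 4, and LOR was above FLG only in shCtrl 2, at 19.4 against 10.7 RPKM. CRNN and IVL did not hold a fixed order in shCtrl, where CRNN was higher in 2 of 4 libraries, whereas CRNN was higher in 4 of 4 HIF1A-KD libraries.

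**Figure D1:**
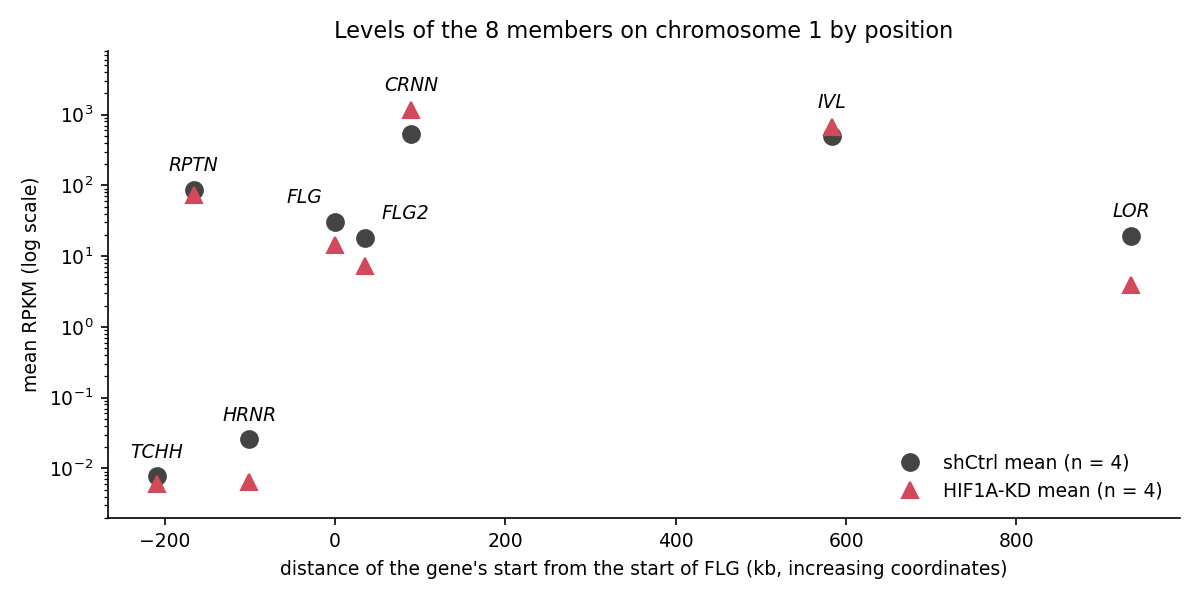
Mean RPKM (log scale) of the 8 members on chromosome 1 against the distance of each gene's start from that of FLG in kb, with circles for shCtrl and triangles for HIF1A-KD (n = 4 libraries each). HRNR and TCHH, under 0.03 RPKM, lie between and beside genes at 14.4 to 87.1 RPKM.

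In that plot of levels by position, HRNR lies at −101 kb from FLG, between FLG and RPTN, and was far below both. HRNR had 47 reads in shCtrl 1 (0.101 RPKM), 1 read in shCtrl 2 and 0 reads in shCtrl 3 and 4, and 7, 6, 0 and 0 reads in HIF1A-KD 1 to 4. TCHH had 3, 3, 0 and 4 reads in shCtrl and 1, 4, 4 and 0 reads in HIF1A-KD. Both genes were thus at or near the limit of detection in every library except for HRNR in shCtrl 1, and a count of 0 allows up to 3 reads, or 0.00594 to 0.00818 RPKM for HRNR and 0.00818 to 0.0113 RPKM for TCHH in the libraries with 0. This limit covers counting error only. Neither gene passed the filter on low values (at least 0.5 RPKM in at least 4 libraries), and two-sided exact permutation tests of 4 against 4 libraries gave p = 0.886 for HRNR and p = 0.771 for TCHH.

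Of the 7 members that passed the filter, 0 were called by limma at an adjusted p of 0.05, where 5 of 11899 genes (0.0420%) were called, 0.0252% higher and 0.0168% lower. In the paired fit, which takes the library number as a block, again 0 of the 7 were called, against 1.83% of all genes, and 0 were called by limma-voom on reads recovered from the RPKM values. At an unadjusted p under 0.05 there were 2 of 7, CRNN and CASP14, against 7.80% of all tested genes. The estimates of 5 members were below 0 and those of 2 above 0, with a median log2 difference of −0.45 against 0.064 over all genes tested. Of all genes tested, 58.7% had estimates above 0. The 2 lines did not overlap for CRNN and CASP14, against 5.40% of all tested genes, of which 3.27% were higher and 2.13% lower in HIF1A-KD.

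**Figure D2:**
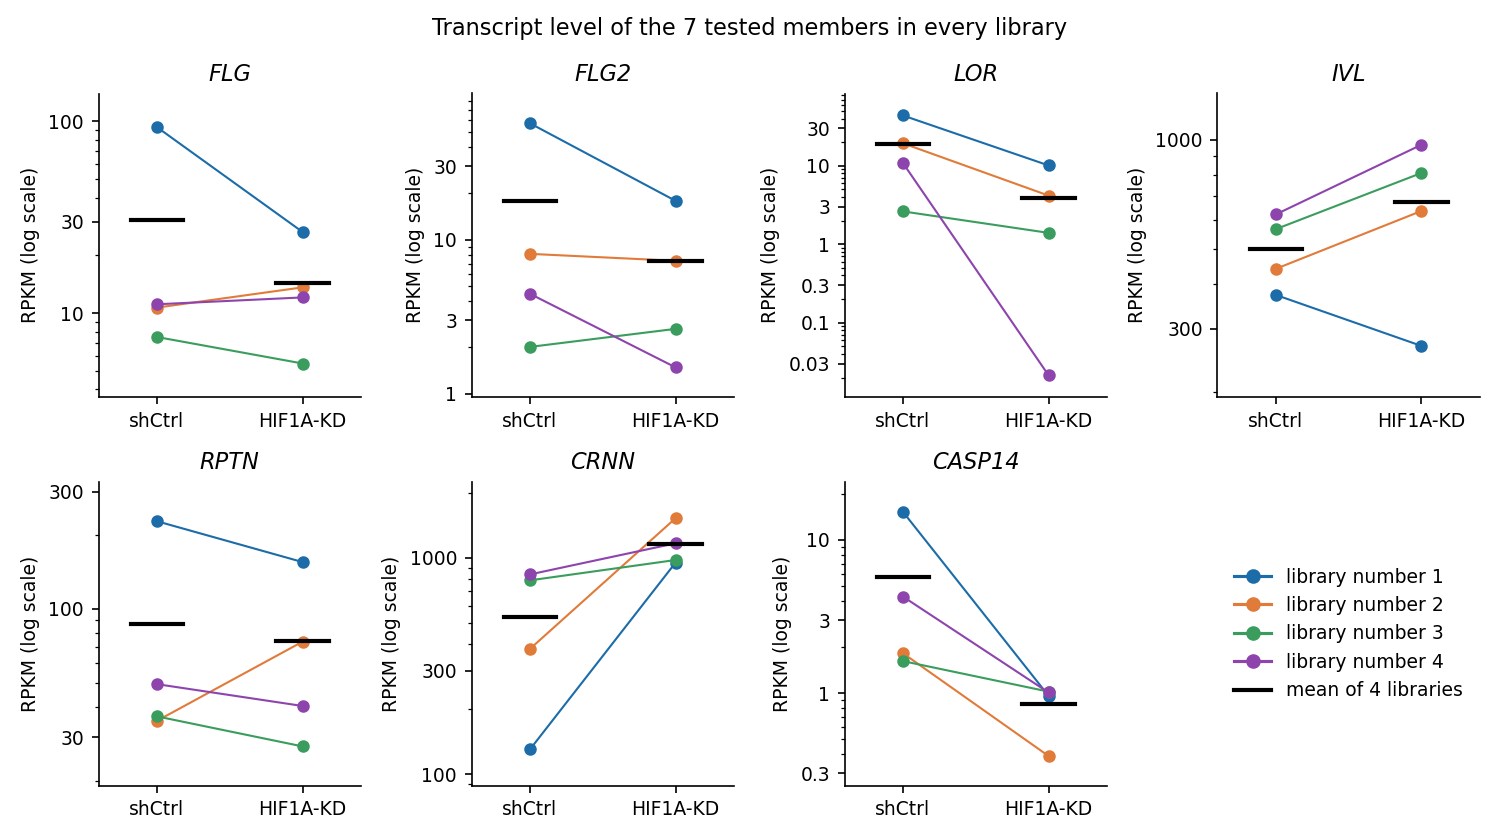
RPKM (log scale) of the 7 tested members in every library of shCtrl and HIF1A-KD, with libraries of the same number joined by a line and black bars for the means of 4. Number 1 (blue) is highest in shCtrl for FLG, FLG2, LOR, RPTN and CASP14 and lowest for IVL and CRNN.

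Cornulin was the only member with every HIF1A-KD library above every shCtrl library. CRNN was measured at 129.9, 379, 788 and 839 RPKM in shCtrl 1 to 4 and at 952, 1528, 978 and 1169 RPKM in HIF1A-KD 1 to 4. The shCtrl libraries were spread over a wide range and the HIF1A-KD libraries over a narrow one, and the gap between the lines was small, from 839 to 952 RPKM. The ratio of means was 2.17 and the log2 difference 1.42 (SE 0.54, adjusted p = 0.525, limma), higher in 4 of 4 numbered pairs, as were 18.6% of all tested genes (29.5% had 1 direction in 4 of 4 pairs). A two-sided exact permutation test of the libraries gave p = 0.0286, the smallest that 4 against 4 allows. Among libraries 1 and 2 the log2 difference was 2.44, and among libraries 3 and 4 it was 0.40. Without shCtrl 1, the library with the lowest CRNN, the log2 difference was 0.85 (adjusted p = 0.618, limma). The authors' deposited table lists CRNN at a log2 fold change of 1.05, a second value that it calls adjusted of 0.87 and an adjusted p of 0.0180, where 9.02% of its 13627 genes are under 0.05, 3.94% higher and 5.08% lower.

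Involucrin differed between the lines by less than the spread between libraries. IVL was measured at 372, 439.5, 566 and 622 RPKM in shCtrl 1 to 4 and at 269, 636, 809.7 and 969 RPKM in HIF1A-KD 1 to 4. HIF1A-KD 1 was the lowest of all 8 libraries and the other 3 HIF1A-KD libraries were each above all shCtrl libraries. The log2 difference was 0.31 (SE 0.38, adjusted p = 0.965, limma), higher in 3 of 4 pairs. It was 0.03 among libraries 1 and 2 and 0.58 among libraries 3 and 4.

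Caspase-14 was the only member with every HIF1A-KD library below every shCtrl library. CASP14 was measured at 15.3, 1.83, 1.62 and 4.27 RPKM in shCtrl 1 to 4 and at 0.962, 0.3895, 1.02 and 1.01 RPKM in HIF1A-KD 1 to 4. The lines were parted by a gap from 1.02 to 1.62 RPKM, and shCtrl 1 was 3.58 times the next highest library. These values rest on 80 to 152 reads in HIF1A-KD and 248 to 2327 reads in shCtrl. The log2 difference was −2.11 (SE 0.66, adjusted p = 0.392, limma), lower in 4 of 4 pairs, as were 10.9% of all tested genes, and the two-sided exact permutation test gave p = 0.0286. Among libraries 1 and 2 the log2 difference was −2.92, among libraries 3 and 4 it was −1.30, and without shCtrl 1 it was −1.44 (adjusted p = 0.509, limma). In the authors' deposited table CASP14 has a log2 fold change of −2.85, an adjusted log2 fold change of −1.46 and an adjusted p of 2.54e-05. With CRNN it is 1 of 2 members under 0.05 there, of 7 members listed, against 9.02% of all genes of that table. The caspase's transcript was scarce beside that of its substrate, with a ratio of FLG to CASP14 in RPKM of 2.60 to 6.10 in shCtrl and 5.32 to 34.9 in HIF1A-KD. That ratio was higher in 4 of 4 pairs and the lines overlapped (two-sided exact permutation p = 0.0857, adjusted p = 0.343 over 6 ratios of members).

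Loricrin had the largest estimate and the least certain one. LOR was measured at 43.9, 19.4, 2.62 and 10.9 RPKM in shCtrl 1 to 4 and at 10.1, 4.17, 1.396 and 0.0214 RPKM in HIF1A-KD 1 to 4. HIF1A-KD 4 held 1 read, where the other libraries held 81 to 2610, and an exact 95% Poisson interval of that read runs from 0.000541 to 0.119 RPKM. The lines overlapped, since HIF1A-KD 1 and 2 lay above shCtrl 3. The log2 difference was −2.92 (SE 1.32, adjusted p = 0.659, limma), lower in 4 of 4 pairs, as were 10.9% of all tested genes. The two-sided exact permutation p was 0.114. Without HIF1A-KD 4 the log2 difference was −1.65 (SE 0.96, adjusted p = 0.888, limma). Among libraries 1 and 2 it was −2.15 and among libraries 3 and 4 −3.68. In the authors' deposited table LOR has a log2 fold change of −2.38, an adjusted log2 fold change of −0.43 and an adjusted p of 0.306.

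**Figure D3:**
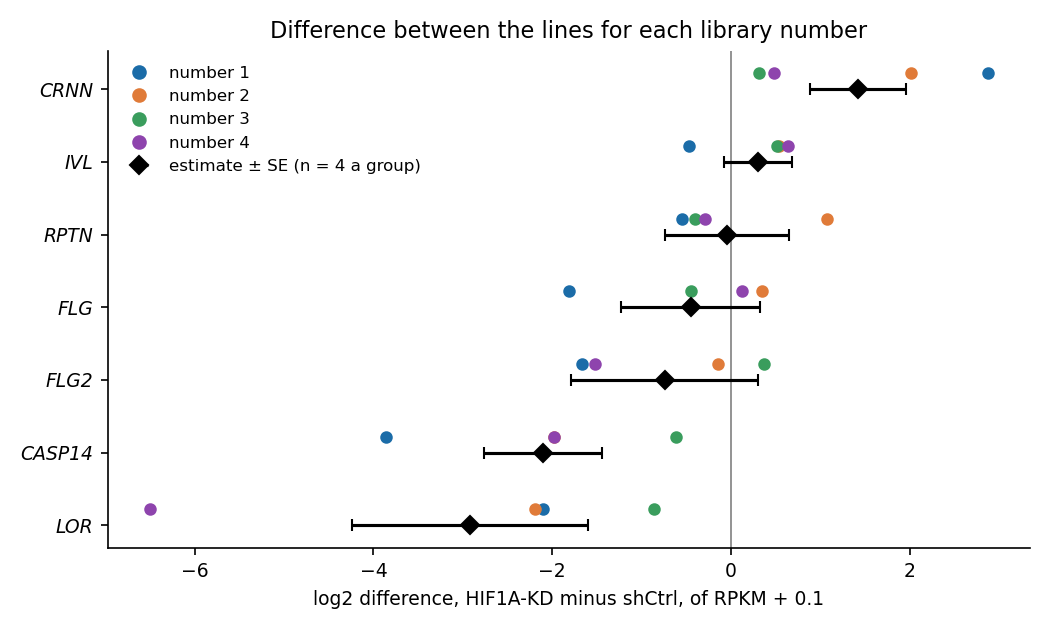
Log2 difference of RPKM + 0.1, HIF1A-KD minus shCtrl, for the 7 tested members, as black diamonds with the SE of the fit without a block (n = 4 libraries a group) and as coloured points for each library number. Only CRNN lies to the right of 0 for all 4 numbers, and only CASP14 and LOR lie to the left for all 4.

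Filaggrin and filaggrin-2 differed between the lines by much less than among libraries of 1 line. FLG was measured at 93.2, 10.7, 7.50 and 11.1 RPKM in shCtrl 1 to 4 and at 26.5, 13.6, 5.45 and 12.1 RPKM in HIF1A-KD 1 to 4. Apart from number 1, shCtrl lay between 7.50 and 11.1 RPKM, within the range of HIF1A-KD, from 5.45 to 13.6 RPKM. The log2 difference was −0.45 (SE 0.78, adjusted p = 0.983, limma), lower in 2 of 4 pairs, and without shCtrl 1 it was 0.37 (adjusted p = 0.976, limma), in the other direction. The mean of shCtrl was 9.76 ± 1.97 RPKM (SD, n = 3) without shCtrl 1, and that of HIF1A-KD 10.4 ± 4.33 RPKM (SD, n = 3) without HIF1A-KD 1. Among libraries 1 and 2 the log2 difference was −0.73 and among libraries 3 and 4 −0.17.

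FLG2 was measured at 57.0, 8.10, 2.01 and 4.46 RPKM in shCtrl 1 to 4 and at 17.9, 7.30, 2.64 and 1.48 RPKM in HIF1A-KD 1 to 4. Number 1 was highest in each line, and the lines overlapped throughout. The log2 difference was −0.74 (SE 1.04, adjusted p = 0.974, limma), lower in 3 of 4 pairs, and 0.19 without shCtrl 1 (adjusted p = 0.996, limma). It was −0.91 among libraries 1 and 2 and −0.58 among libraries 3 and 4. In the authors' deposited table the adjusted p is 0.302 for FLG and 0.0592 for FLG2.

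Repetin, like filaggrin and filaggrin-2, was highest in number 1 of each line. RPTN was measured at 227, 35.0, 36.5 and 49.4 RPKM in shCtrl 1 to 4 and at 155, 73.6, 27.5 and 40.2 RPKM in HIF1A-KD 1 to 4. Number 1 stood above the rest in both lines, and the other 6 libraries lay between 27.5 and 73.6 RPKM. The log2 difference was −0.05 (SE 0.69, adjusted p = 0.999, limma), lower in 3 of 4 pairs, with 0.26 among libraries 1 and 2, −0.35 among libraries 3 and 4 and 0.58 without shCtrl 1.

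For these genes the library number held more of the variation than the hairpin. Of the sum of squares of log2(RPKM + 0.1) over the 8 libraries, the number took 83.7% for FLG, 87.3% for FLG2, 89.9% for RPTN and 76.8% for IVL, and the line took 3.63%, 5.32%, 0.0497% and 7.33%. For CASP14 and CRNN the order was the other way, with 54.5% and 44.6% for the line and 29.1% and 30.1% for the number. LOR had 35.0% for the line and 46.2% for the number. Over all tested genes the medians were 8.32% for the line and 66.4% for the number, which has 3 degrees of freedom against 1. The spread among shCtrl libraries was wide for 6 of the 7 members, whose SD of log2(RPKM + 0.1) was above that of 96.4% to 98.7% of tested genes, and ordinary for IVL (41.7%). In HIF1A-KD, the SD was above that of 99.6% of tested genes for LOR, 97.5% for FLG2, 94.7% for RPTN and 92.0% for FLG. It was above that of 88.6% for IVL, 74.1% for CASP14 and 36.5% for CRNN.

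Library 1 of shCtrl set much of the spread among shCtrl libraries. It held the highest shCtrl value of 5 of the 7 tested members, at 8.40 times the next shCtrl library for FLG, 7.04 times for FLG2, 4.61 times for RPTN, 3.58 times for CASP14 and 2.26 times for LOR. It held the lowest value of the other 2, with CRNN at 0.155 and IVL at 0.599 times the highest other shCtrl library. HIF1A-KD 1 was likewise highest in its line for FLG, FLG2, LOR and RPTN, at 1.94 to 2.45 times the next, and lowest for IVL and CRNN, but not highest for CASP14. The suprabasal keratins of mucosal type were low in shCtrl 1, with KRT13 at 25.7 RPKM against 152 to 676 RPKM and KRT4 at 188 RPKM against 246 to 729 RPKM in the other shCtrl libraries. KRT1 was also lowest there, by little, at 149 RPKM against 151 to 333 RPKM. KRT10, KRT6A and KRT16 in shCtrl 1 lay within the range of the other shCtrl libraries. Their values were 176, 12710 and 4486 RPKM, against 130 to 212, 9070 to 13660 and 3330 to 5350 RPKM. In HIF1A-KD 1, KRT4 was at 1984 RPKM, the highest of all libraries, and KRT13 at 367 RPKM, the lowest of its line. KRT10 was also highest of all libraries there, at 1658 RPKM against 442 to 953 RPKM in the other HIF1A-KD libraries. KRT1, KRT6A and KRT16 in HIF1A-KD 1 lay within the range of those libraries, at 557, 10680 and 5546 RPKM. VWF reached 15.3 RPKM in library 1 of shCtrl and 12.55 RPKM in library 1 of HIF1A-KD, and at most 4.98 RPKM elsewhere, while the other 3 endothelial markers, PECAM1, CDH5 and KDR, were at most 0.217 RPKM in every library. CD68 was lowest in number 1 of each line, at 23.5 and 19.0 RPKM, while 4 of the 6 leukocyte markers were at 0 throughout. The part of these differences in the members' values was not tested.

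**Figure D4:**
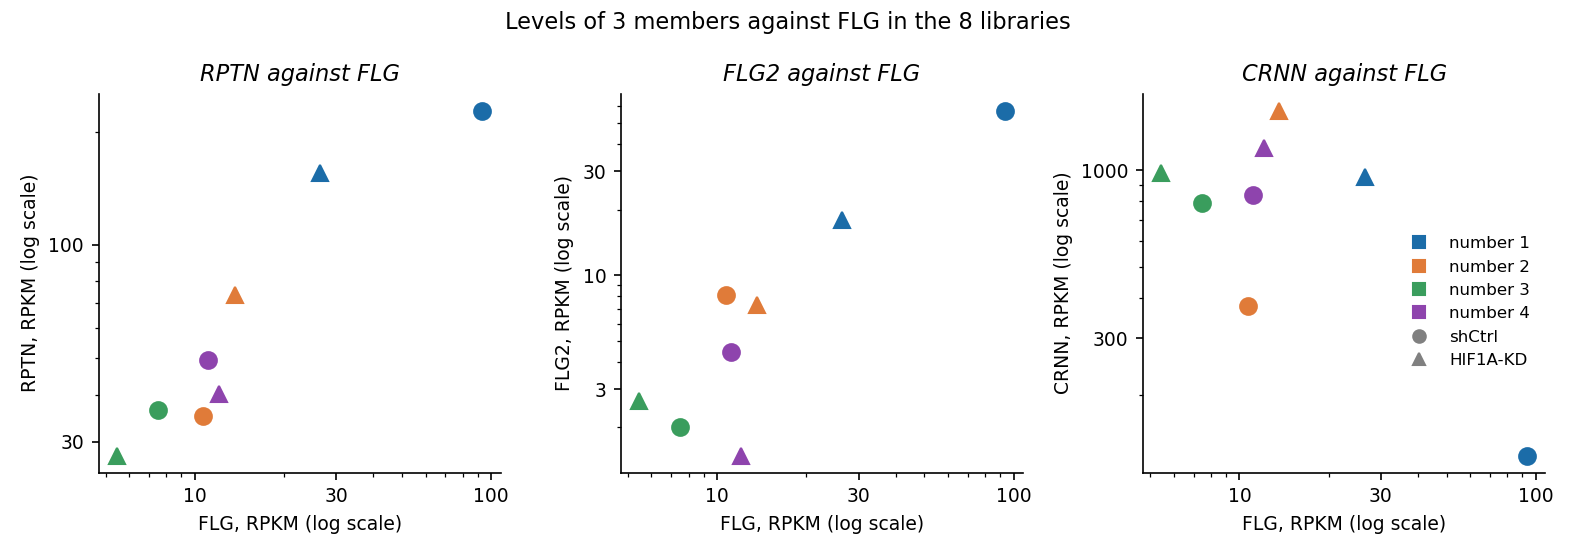
RPKM of RPTN, FLG2 and CRNN against that of FLG in the 8 libraries (log scales), with circles for shCtrl, triangles for HIF1A-KD and a colour for each number. RPTN and FLG2 are high where FLG is high, and CRNN is at its lowest, 129.9 RPKM, where FLG is at its highest, 93.2 RPKM.

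FLG and RPTN ranked the libraries in nearly the same order, as the plots against FLG show. Over the 8 libraries Pearson's r of log2(RPKM + 0.1) was 0.94 (exact permutation p = 0.000198, adjusted p = 0.00417 over 21 pairs of members) and Spearman's rho 0.95 (exact permutation p = 0.00114, adjusted p = 0.0240). Without shCtrl 1 and HIF1A-KD 1, the libraries farthest from the median of FLG, r was 0.80. For FLG and FLG2 r was 0.89 (exact permutation p = 0.00379, adjusted p = 0.0266) and rho 0.64 (exact permutation p = 0.0962, adjusted p = 0.242), and r was 0.41 without those 2 libraries, so that relation rests on them. FLG and CRNN gave r = −0.69 (exact permutation p = 0.0817, adjusted p = 0.159) and rho = −0.05 (exact permutation p = 0.935, adjusted p = 0.982), and r = 0.16 without the same 2 libraries. Libraries of the same number deviated together, so the 8 are not fully independent and these p-values are too small. Libraries 1 and 2 against 3 and 4 hold 4 libraries each, too few for a correlation within them.

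The balance between cornulin and filaggrin varied widely among libraries of 1 line. The ratio of CRNN to FLG in RPKM was 1.39, 35.5, 105 and 75.5 in shCtrl 1 to 4 and 36.0, 112, 179 and 96.9 in HIF1A-KD 1 to 4. It was higher in HIF1A-KD in 4 of 4 pairs, but the lines overlapped (two-sided exact permutation p = 0.229, adjusted p = 0.343 over 6 ratios). The ratio of CRNN to IVL was 0.349 to 1.39 in shCtrl and 1.21 to 3.54 in HIF1A-KD (exact permutation p = 0.171, adjusted p = 0.343), higher in 2 of 4 pairs. The 9 genes together took 0.203% to 0.367% of the reads of a shCtrl library and 0.346% to 0.479% of those of a HIF1A-KD library.

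The genes with the pattern most like each member were taken as the 3 with the highest Pearson's r of log2(RPKM + 0.1) over the 8 libraries, among 11599 genes. They are given as a description, since 19 to 238 genes reached r over 0.9 with a member. For CRNN they were TJP3, a tight junction protein gene (r = 0.98), TMPRSS11D, an airway-type serine protease gene (0.97), and SPRR3, an esophageal envelope precursor gene (0.97). SPRR3 went with CRNN in both its low value in shCtrl 1, 819.8 RPKM, and its higher level in HIF1A-KD, 4698 to 6660 RPKM. For FLG they were CHST2 (0.98), SEC14L1 (0.98) and DCAF10 (0.98), and for RPTN NCKAP1 (0.97), DCAF10 (0.97) and GUSBP11 (0.96), so DCAF10 was shared. For FLG2 they were SLC28A3, CORO6 and IPO5P1 (0.98 to 0.99), for LOR DERL1, B4GALNT4 and SLC46A1 (0.98 to 0.99), for IVL TPMT, TARDBP and RAET1E (0.96 to 0.97), and for CASP14 HSPA13, DSCAM and ZCCHC3 (0.95 to 0.96).

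Genes listed for filaggrin processing and breakdown, which include inhibitor genes such as CST6 and SPINK5 besides proteases, had mostly lower estimates in HIF1A-KD. Of 26 listed genes 23 were tested, and 18 estimates were below 0, with a median log2 difference of −0.22 against 0.064 over all genes. The other 5 were above 0, as were 58.7% of all tested genes. By limma without a block 0 were called. At an unadjusted p under 0.05 in that fit there were 4, against 7.80% of all tested genes, with 3 lower and SPINK5 higher. With the library number as a block 3 fell and 0 rose, where 1.09% of all genes were called lower and 0.740% higher. KLK5 encodes a kallikrein that cuts profilaggrin and corneodesmosomes, and its mean fell in that fit, 149 ± 76.7 RPKM in shCtrl against 55.8 ± 13.9 RPKM in HIF1A-KD (SD, n = 4 each, log2 difference −1.32, adjusted p = 0.0224, limma). Its shCtrl libraries held 262, 113, 93.4 and 127 RPKM and its HIF1A-KD libraries 75.8, 49.4, 53.5 and 44.4 RPKM, with no overlap. With the block, the cysteine protease inhibitor gene CST6 also fell, 142 ± 64.5 against 61.8 ± 16.6 RPKM (SD, n = 4 each, log2 difference −1.15, adjusted p = 0.0495, limma), and so did the membrane protease gene TMPRSS13, 16.1 ± 10.4 against 9.25 ± 5.61 RPKM (−0.80, adjusted p = 0.0430, limma). These 3 calls were lost without number 1 (adjusted p 0.0883 to 0.217, limma with block) and without number 2 (0.172 to 0.212), TMPRSS13 was lost without number 3 (0.0731), and of the 3 only KLK5 was called without number 4 (0.0486).

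**Figure D5:**
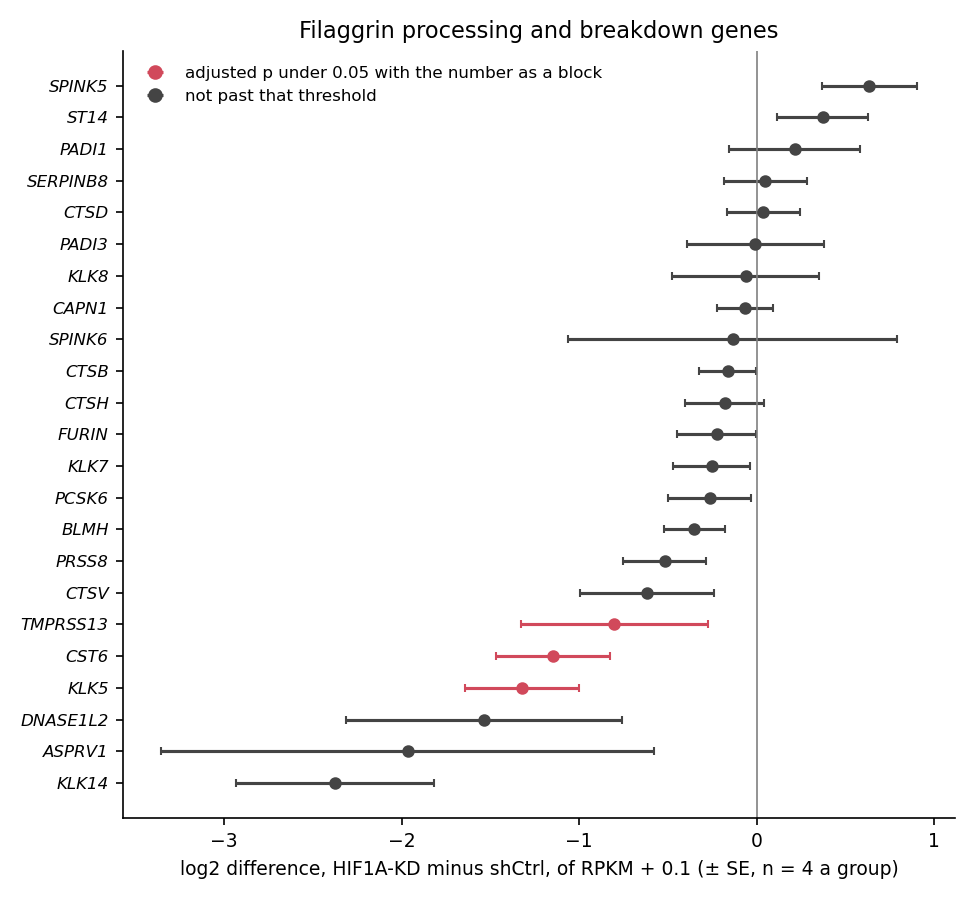
Log2 difference of RPKM + 0.1, HIF1A-KD minus shCtrl, with the SE of the fit without a block (n = 4 libraries a group), for the 23 tested genes of filaggrin processing and breakdown. Red marks KLK5, CST6 and TMPRSS13, the genes called with the library number as a block, and 18 of the 23 estimates lie left of 0.

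Among these genes without a call by limma in either fit were ASPRV1, the retroviral-like protease of the filaggrin linker, and KLK14. The log2 difference was −1.97 (SE 1.39) for ASPRV1 and −2.38 (SE 0.56) for KLK14, with no overlap between the lines for KLK14. Their adjusted p was 0.841 and 0.222 without the block and 0.0728 and 0.0733 with it (limma). For KLK5, CST6 and TMPRSS13 the adjusted p without the block was 0.245, 0.325 and 0.824 (limma). ASPRV1 and KLK14 were chosen after their values were seen. SPINK5, the inhibitor of KLK5, went the other way, from 588 ± 179 to 895 ± 204 RPKM (SD, n = 4 each). Its log2 difference was 0.63 (adjusted p = 0.610, limma, and 0.0544 with the block). It was higher in 4 of 4 pairs, as were 18.6% of all tested genes. The abundant cathepsin genes CTSD (0.04) and CTSB (−0.16) had log2 differences with an adjusted p of 0.998 and 0.936 (limma). The authors' deposited table gives an adjusted p of 6.18e-12 for KLK5, 1.78e-06 for CST6 and 2.68e-06 for TMPRSS13. It gives 1.66e-08 for ASPRV1, 0.000181 for KLK14 and 0.00839 for SPINK5, but 0.912 for CTSD and 0.334 for CTSB. Of all its genes 9.02% are under 0.05.

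Of 5 tested genes of the epidermal differentiation complex outside the families of late cornified envelope, small proline-rich and S100 genes, 0 were called without a block (2 at an unadjusted p under 0.05, limma, against 7.80% of all genes) and 2 fell in the paired fit, against 1.09% of all genes called lower. These were PRR9 (95.6 ± 139 to 4.58 ± 5.29 RPKM, SD, n = 4 each; adjusted p = 0.00512, limma) and CRCT1 (2676 ± 2139 to 1017 ± 822 RPKM; adjusted p = 0.0224, limma). CRCT1 was not called without number 1 (0.112), 2 (0.0734) or 4 (0.0509), and PRR9 not without number 2 (0.0667). KPRP had a log2 difference of −2.38 (SE 1.00, adjusted p = 0.607, limma) and the peptidoglycan recognition genes PGLYRP3 and PGLYRP4 of 0.08 and −0.16. With the block the adjusted p of KPRP was 0.0626, and without it PRR9 had 0.287 and CRCT1 0.672 (limma). Of 18 genes for crosslinking, scaffold and lipid envelope, 0 were called in either fit, and the median log2 difference was −0.33. At an unadjusted p under 0.05 (limma without a block) there were 5, against 7.80% of all genes. Of these 5, 3 were lower in HIF1A-KD and the others higher. Estimates of the 18 genes were below 0 for 10 and above 0 for 8, where 58.7% of all tested genes were above 0. KPRP is in both this list and the one before it, and is counted in each. PI3, which encodes the crosslinked protease inhibitor elafin, had mean levels of 15004 ± 4692 RPKM (shCtrl) and 7256 ± 3193 RPKM (HIF1A-KD) (SD, n = 4 each; log2 difference −1.10, adjusted p = 0.377, limma). The cystatin gene CSTA had a log2 difference of 0.50 (adjusted p = 0.633, limma), and ANXA1 of 0.50 (adjusted p = 0.874, limma). With the block the adjusted p was 0.0904 for PI3, 0.0618 for CSTA and 0.208 for ANXA1 (limma). Of 28 transcription factor genes known for late keratinocyte differentiation, 0 were called in either fit and 0 had an unadjusted p under 0.05 (limma), with a median log2 difference of 0.12. The AP-1 subunit genes JUNB (0.22, adjusted p = 0.911, limma) and FOSL1 (−0.09, adjusted p = 0.998, limma) and the Krüppel-like factor gene KLF4 (0.32, adjusted p = 0.955, limma) were the most abundant of these. In the authors' deposited table the adjusted p was 2.25e-40 for PRR9, 2.05e-10 for CRCT1, 1.12e-10 for KPRP, 0.000379 for PI3 and 0.0172 for CSTA. It was 0.256 for ANXA1, 0.424 for PGLYRP4 and 0.994 for PGLYRP3. For JUNB, FOSL1 and KLF4 it was 0.575, 0.871 and 0.625.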

How the data were processed

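Although its name speaks of raw counts, the deposited table gives RPKM made by the authors. Each value times its gene length was a whole number of reads, within 0.01 read, for 100% of 24772 genes, and library totals and reads were recovered from this; 597 genes had an unreadable length. Per the submitters' processing notes HTSeq 0.6.1, TopHat2 2.0.13 and Picard 1.129 were among the tools, with Bowtie2 2.2.3.0. Both hg19 and GRCh38 are named there without a role, and contig names in the table are those of hg19. The authors' second deposited table gives mean normalised signal per line, fold ratios, their log2 and p-values. The sources used here do not name its test.

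The test was limma 3.58.1 (R 4.3.3), trended and robust, two-sided, on log2(RPKM + 0.1) of 11899 genes that reached 0.5 RPKM in 4 or more libraries, with Benjamini-Hochberg adjustment over all of them and a threshold of 0.05. It was also run on simulated counts drawn without an effect of the library number, so that run does not bear on the spread between these libraries. Fold changes on this scale understate those of low genes. Same-numbered libraries deviated together from their group means, and r across genes was 0.754 for number 1, 0.730 for 2, 0.252 for 3 and 0.257 for 4, each above 0.1. The pairing thus rests on the values, since the labels state none, and for numbers 3 and 4 it is uncertain, since shCtrl 3 with HIF1A-KD 4 gave 0.463 and shCtrl 4 with HIF1A-KD 3 gave 0.613. Paired fit means limma with the number as a block. Libraries 1 and 2 against 3 and 4 are an unlabelled split. Members, gene lists and motifs were chosen with earlier results of these data known. Named genes were the members, HIF1A, up to 4 called and the 3 most abundant genes of each list, and the 3 genes most like each tested member. Besides these came the cell type markers, FLG-AS1, and ASPRV1 and KLK14, which were added after their values were seen. Single values were compared with exact permutation tests (scipy 1.17.1).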

Additional observations from a re-analysis of the deposited data

Results flagged for a closer look

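Single libraries stood far from the other 3 of their line by Dixon's criterion at 95% in 11 of 54 groups screened over 27 genes. The criterion flags about 1 in 20 only for independent, normally distributed values. The screen used RPKM without a log, and several of these genes varied together, so the 11 cannot be compared with that rate. Of these 11, 7 were shCtrl 1. There FLG was at 93.2 RPKM against 11.1 RPKM in the next library, FLG2 at 57.0 against 8.10 RPKM, RPTN at 227 against 49.4 RPKM and HRNR at 0.101 against 0.0024 RPKM. Among the listed genes, KPRP was at 675 against 56.9 RPKM, PRR9 at 303.5 against 46.4 RPKM and CST6 at 237.5 against 120.5 RPKM in the same library. HIF1A-KD 1 was apart for PRR9, at 12.5 against 2.37 RPKM, and for PGLYRP3, at 132.9 against 90.5 RPKM. On the low side, CASP14 was at 0.3895 RPKM in HIF1A-KD 2 against 0.962 RPKM in the next, and CST6 at 37.3 RPKM in HIF1A-KD 4 against 66.2 RPKM.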

How the results depend on the processing

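None of the 7 tested members was called in any of the 23 alternatives run, with the replicate block included, which changed no member's call and moved that of HIF1A (log2 difference −1.34, adjusted p = 0.0253). The lowest adjusted p of a member was 0.0544, for LOR in the paired fit without replicate 4. LOR, IVL, CRNN and CASP14 kept their direction throughout. The direction turned for FLG without shCtrl 1 (0.37) and in the paired fit without number 1 (0.0046), for FLG2 without shCtrl 1 (0.19), and for RPTN among libraries 1 and 2 (0.26), without shCtrl 1 (0.58), HIF1A-KD 3 (0.33) or HIF1A-KD 4 (0.14), and in the paired fit without number 1 (0.12), 3 (0.074) or 4 (0.037). Leaving out 1 library gave −0.84 to 0.37 for FLG, −1.39 to 0.19 for FLG2 and −0.50 to 0.58 for RPTN. The cause was not tested. The count of all genes called, 5, was 3 with a pseudocount of 1 or 0.01, by voom or without trend and robust moderation, 1 without the filter (more genes tested), 8 with median-of-ratios scaling, 218 with the replicate block (33, 1, 195 and 182 without number 1, 2, 3 and 4), 102 with the split as a term, 0 among libraries 1 and 2 but 5 among libraries 3 and 4 and 0 to 3 without 1 library. List genes called went from 0 to 5 with the block, and to 0 to 7 without 1 number. That scaling moved the median of all genes from 0.064 to −0.0077. The strict filter left CASP14 out. Depth limits HRNR, TCHH and, in HIF1A-KD 4, LOR.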
